A study of Homo sapiens with 135 samples.

Results

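Genomic imprinting leaves a small set of human genes active from only the maternal or the paternal copy, and 10 of these genes were followed here: H19, IGF2, KCNQ1OT1, MEG3, SNRPN, GNAS, PEG3, PEG10, MEST and GRB10. Members were the ChIP-seq peak regions lying wholly inside 9 fixed windows of build hg19 around these genes, 1.96 Mb in all, with H19 and IGF2 sharing a window. The windows held 1707 of the 833373 regions of the 36 peak lists (0.205%), and 657 of 350373 after regions that overlapped between lists were merged. Within the windows, position alone made a region a member. Another 3 regions crossed a window edge and were not counted.

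ChIP-seq recovers the DNA bound by a protein with an antibody and sequences it. The cells were of the established human embryonic stem cell line H9, sampled on days 0, 4 and 9 of a culture whose protocol describes neural induction. They were labelled WT, DMSO (the solvent) or BPK25 at 20 µM, a small molecule reported to lower proteins of the NuRD complex. Every group is this 1 line, and the labels name no genetic change. CTCF and MBD3 were profiled under all 3 labels, and TET1, TET2 and TET3 under DMSO and BPK25 only. Each antibody, day and label gave 1 list, called by the authors on 3 pooled replicates, so no value below has a replicate error. Lists held between 321 and 84203 regions (median 15353), and their sequencing depth is not stated in the files. Binding lists hold no expression, so the identity of the cells could not be checked against marker genes here.

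At imprinted loci, DNA methylation laid down in the germ line marks 1 parental copy at an imprinting control region. CTCF, a zinc finger protein that organises chromatin loops and insulates enhancers, binds several such regions on the unmethylated copy; between H19 and IGF2 this decides which gene the shared enhancers can reach. MBD3 is a subunit of NuRD, a complex that removes histone acetylation and moves nucleosomes. TET1, TET2 and TET3 oxidise 5-methylcytosine, the first step of active demethylation. The peaks do not tell the parental copies apart.

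Promoters of 6 of the 10 genes had an entry in the RefSeq promoter table (build GRCh38.p14), with 24 start sites between them, and IGF2, KCNQ1OT1, PEG3 and PEG10 were not matched. Each entry runs from 250 bases before to 50 bases after a start. CpG dinucleotides, the sites that imprinting methylates, are printed below in capitals, to show how far these promoters differ in what TET enzymes and methylation could act on. The positions are those of GRCh38.p14 and cannot be laid over the hg19 peaks.
GRB10: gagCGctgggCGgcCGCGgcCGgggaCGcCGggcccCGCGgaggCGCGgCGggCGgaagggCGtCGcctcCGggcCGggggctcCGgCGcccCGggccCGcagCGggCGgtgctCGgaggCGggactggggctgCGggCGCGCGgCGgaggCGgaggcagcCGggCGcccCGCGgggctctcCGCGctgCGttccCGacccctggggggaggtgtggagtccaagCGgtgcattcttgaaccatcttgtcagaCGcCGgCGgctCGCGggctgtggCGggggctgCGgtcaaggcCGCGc
MEST: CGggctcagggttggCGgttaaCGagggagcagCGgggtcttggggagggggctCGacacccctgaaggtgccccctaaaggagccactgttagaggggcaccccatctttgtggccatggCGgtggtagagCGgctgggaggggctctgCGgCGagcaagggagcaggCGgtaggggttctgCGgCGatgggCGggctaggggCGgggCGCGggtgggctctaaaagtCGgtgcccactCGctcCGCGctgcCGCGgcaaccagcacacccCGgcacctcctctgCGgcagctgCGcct
SNRPN: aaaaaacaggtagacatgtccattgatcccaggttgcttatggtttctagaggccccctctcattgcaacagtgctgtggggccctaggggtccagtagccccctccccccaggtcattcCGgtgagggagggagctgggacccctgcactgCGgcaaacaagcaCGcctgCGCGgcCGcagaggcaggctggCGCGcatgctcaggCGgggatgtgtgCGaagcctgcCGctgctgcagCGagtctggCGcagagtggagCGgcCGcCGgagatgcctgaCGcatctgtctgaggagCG
H19: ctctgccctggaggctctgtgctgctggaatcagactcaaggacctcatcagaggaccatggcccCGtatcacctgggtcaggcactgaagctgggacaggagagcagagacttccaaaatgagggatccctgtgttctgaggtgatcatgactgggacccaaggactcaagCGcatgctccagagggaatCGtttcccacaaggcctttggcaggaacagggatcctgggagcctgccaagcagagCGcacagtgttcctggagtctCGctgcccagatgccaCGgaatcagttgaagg
GNAS: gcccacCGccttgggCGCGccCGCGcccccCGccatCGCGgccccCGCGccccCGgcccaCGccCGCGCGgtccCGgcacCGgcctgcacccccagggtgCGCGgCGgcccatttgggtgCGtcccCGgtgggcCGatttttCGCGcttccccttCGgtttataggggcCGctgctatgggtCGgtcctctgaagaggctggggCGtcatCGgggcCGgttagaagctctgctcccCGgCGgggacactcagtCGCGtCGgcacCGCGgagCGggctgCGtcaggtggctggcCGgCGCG
For each gene the start with most CpG is printed, and MEG3, with 17 to 19 at its 3 starts, is not. Of the 5 GRB10 starts this 1 (chr7:50792825-50793124, minus strand) held 49 CpG, a percentile of 98.4 among the 34796 promoters of the table. The MEST start (chr7:130491835-130492134, plus strand) held 25 and the other 4 held 13 to 22. The SNRPN start (chr15:24954737-24955036, plus strand) held 18, against a median of 14 over all promoters. H19 (chr11:2001217-2001516, minus strand) held 6. A GNAS start (chr20:58888930-58889229, plus strand) held 43, whereas the other 5 GNAS starts held 10 to 34. Over the 24 promoters the median was 18.

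The windows differed widely in how much was bound. KCNQ1OT1 had 200 merged regions, H19/IGF2 169 and MEG3 136, together 505 of the 657 (76.9%) in 0.85 Mb. GRB10 had 56, GNAS 42, SNRPN 32, PEG10 8, and PEG3 and MEST 7 each. Per length this was 676 regions per Mb at H19/IGF2 against 58.3 at MEST and PEG3. Over all windows there were 335 merged regions per Mb, and 218 in the 500 kb on both sides of each window. Windows were denser than these flanks in 26 of the 27 lists with at least 10 members. The exception was MBD3 of day 9 WT cells, with 6.12 against 10.4 per Mb. That minimum selects on the window count itself, and the lists below it went both ways. Windows were denser for MBD3 of day 0 DMSO cells and for CTCF of day 0 DMSO, day 0 BPK25 and day 9 BPK25 cells. They were less dense for MBD3 of day 0 BPK25, TET2 of day 0 DMSO and CTCF of day 0 WT cells. The same held for TET2 and TET3 of day 9 BPK25 cells.

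**Figure D1:**
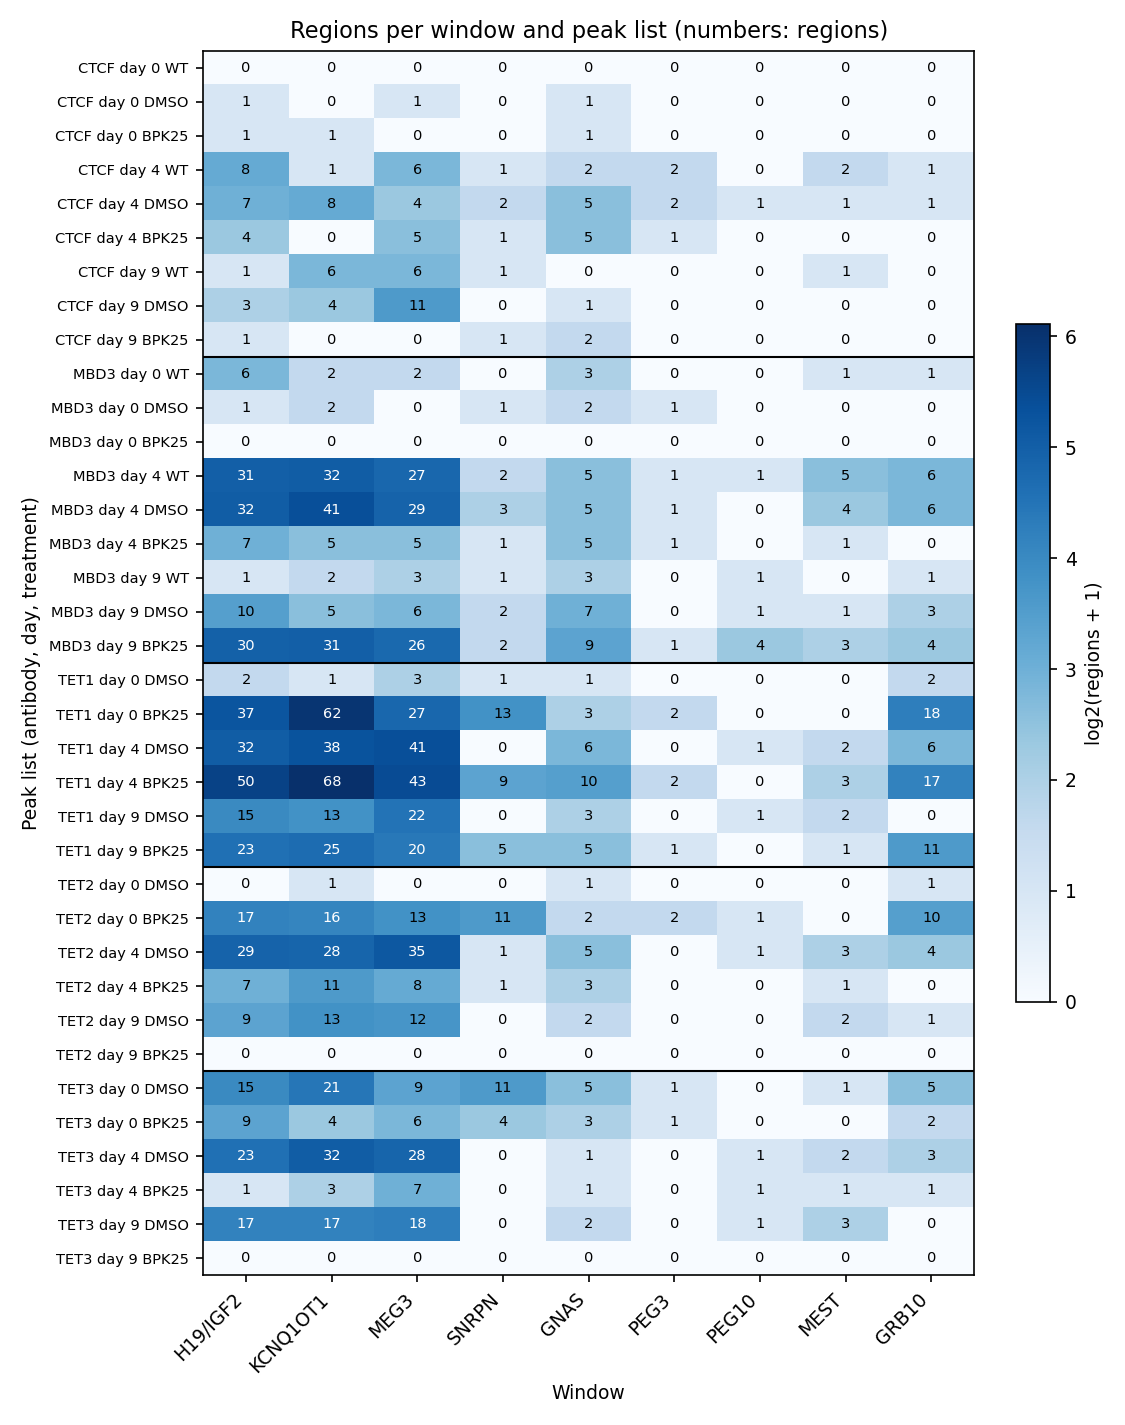
Number of peak regions in each of the 9 windows (columns) in each of the 36 peak lists (rows, by antibody, day and label); shading is log2 of the number plus 1. H19/IGF2, KCNQ1OT1 and MEG3 hold most regions in nearly every list, and 4 lists have none in any window.

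Most regions were held by few lists. Of the 657, 316 (48.1%) occurred in 1 list only, against 60.0% of all merged regions of the series, and 22 occurred in at least 10 lists. TET1 lists held 419 of them, MBD3 lists 291, TET3 196, TET2 192 and CTCF 73, and 532 had a peak of at least 1 TET enzyme. A single antibody accounted for 358, and all 5 antibodies occurred at 24, of which 10 were in the MEG3 window and 8 in that of KCNQ1OT1. The lists behind these counts differ in length. Those of day 4 DMSO cells held 45019 TET1, 46132 MBD3, 33121 TET3, 36633 TET2 and 20675 CTCF regions. The same counts were not made over all merged regions of the series, so they do not show which antibody favours the windows. Members were of ordinary strength: ranked by −log10 q within their own list, where 100 is the strongest, their median lay at 46.1 (range 25.0 to 68.8 over the 27 lists with at least 10). Their widths were also ordinary, with a median of 219 bases over those lists against 213 for whole lists.

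MEST, a gene of the paternal copy that codes for a hydrolase-like protein, held the region shared by most lists. It spanned chr7:130125348-130126884 and had peaks in 16 of 36 lists, with all 5 antibodies. The fold enrichment of MBD3 over local background there, the authors' value for a single peak, was 14.4 in WT and 10.6 in DMSO cells of day 4, and 3.14 under BPK25. TET2 reached 6.93 and TET3 5.75 in day 4 DMSO cells. These folds describe a peak within its own list and were not compared between lists. On day 9 it had peaks in the DMSO lists of TET1, TET2 and TET3 and in none of BPK25 cells. Most regions of those whole DMSO lists likewise had no BPK25 region, 89.1% for TET1, 95.8% for TET2 and 99.3% for TET3.

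SNRPN codes for a splicing protein and is expressed from the paternal copy in the Prader-Willi region. Its most shared region, chr15:25154140-25155003, had 5 CTCF and 6 MBD3 peaks and no TET peak in any of 18 lists. CTCF fold was 10.1 in WT, 17.0 in DMSO and 12.2 in BPK25 cells of day 4, and the lowest ranked of these peaks lay above 92.7% of its list. MBD3 on day 9 had a fold of 29.3 in WT and 22.9 in DMSO cells, the highest of all members in each of those lists, while the BPK25 list of that day had no MBD3 region there. CTCF on day 9 had a region there in the WT list (fold 8.10) and the BPK25 list (fold 5.32) and none in the DMSO list.

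GNAS codes for the stimulatory G protein alpha subunit and has several promoters that differ in imprinting. Its window held 2 regions of contrasting make-up. At chr20:57405230-57405827, TET1 and TET2 lists gave 8 of the 14 peaks. The TET2 fold was 9.08 in day 0 BPK25 cells and the TET3 fold 9.79 in day 0 DMSO cells. CTCF also had peaks there in day 0 BPK25 and DMSO cells, and MBD3 in day 0 WT and day 9 BPK25 cells, so every antibody occurred there. At chr20:57466466-57466928, 4 CTCF and 7 MBD3 lists had peaks and no TET list did. The day 4 BPK25 CTCF peak there had a −log10 q of 148, above that of 97.4% of its list, at a fold of only 5.62.

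MEG3, a long non-coding RNA of the maternal copy, had its most shared region at chr14:101191978-101192663. All 5 antibodies gave 14 peaks there, each of modest size, with folds from 2.90 to 5.22. TET1 was present in 5 of its 6 lists. KCNQ1OT1 is an antisense RNA of the paternal copy that silences its neighbours. Its region chr11:2912946-2913772 had peaks in 13 lists, 6 of MBD3, 5 of TET enzymes and 2 of CTCF. The MBD3 fold there was 14.4 in day 4 WT cells, 9.49 in DMSO and 2.63 in BPK25 cells. Another region of that window, chr11:2721007-2721885, was also in 13 lists, 5 of them of TET1 and 3 of MBD3.

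H19 is an untranslated RNA of the maternal copy, and IGF2 a growth factor of the paternal copy. Their shared window held 26 regions in the 9 CTCF lists. They were unevenly placed, and none lay between one ending at chr11:2006634 and the next, starting at 2056711, and the longest stretch without any ran 53.0 kb from 2099634 to 2152682. MBD3 and TET regions did occur in that longest stretch, with 8 of MBD3, 29 of TET1, 9 of TET2 and 10 of TET3. Which stretch holds the control region was not looked up, since hg19 annotation was not used here. The region in most lists, chr11:2152677-2153347, had peaks in 12, among them 4 of CTCF and 6 of MBD3, all at folds of 1.35 to 4.15 although −log10 q reached 36.9.

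The other genes had fewer shared regions. GRB10, an adaptor that dampens insulin and growth factor signalling, had its most shared region at chr7:50850609-50851342 with 9 peaks, 3 of MBD3 and 6 of TET enzymes, at folds of 3.31 to 4.98. PEG10, derived from a retrotransposon and expressed from the paternal copy, had 6 peaks at chr7:94287198-94287950, none of CTCF. PEG3, a zinc finger gene of the paternal copy, had 5 at chr19:57325329-57325574, which were 2 of CTCF and 3 of MBD3, with an MBD3 fold of 7.85 in day 4 DMSO cells.

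CTCF sites of the cells without BPK25 were examined next, because the study concerns NuRD at such sites. A control CTCF site was a merged region in which 2 or more of the 6 CTCF lists of WT and DMSO cells had a peak, and 15 of the 12295 sites of the genome lay in the windows. H19/IGF2 had 4, MEG3 3, PEG3, GNAS and MEST 2 each, KCNQ1OT1 and SNRPN 1 each, and GRB10 and PEG10 none. MBD3 occurred at 14 of the 15 in at least 1 list (93.3%, Wilson 95% interval 70.2 to 98.8%), against 92.7% of the sites outside. TET enzymes occurred at 10 of 15 (66.7%, 41.7 to 84.8%), against 58.6% outside, and both counts include BPK25 lists. These shares did not differ beyond counting error.

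With the lists of all labels counted, the sites split by window. All 5 sites of SNRPN, PEG3 and GNAS lacked TET peaks in every list, and all 10 sites of H19/IGF2, KCNQ1OT1, MEG3 and MEST had at least 1. At the first and last of the H19/IGF2 sites, however, the TET peaks were in day 0 BPK25 lists only. In DMSO lists alone the H19/IGF2 window was therefore mixed. The first MEST site had a TET peak in 1 list. In day 4 DMSO cells the CTCF fold at the 5 sites without TET had a median of 5.70 (range 3.37 to 17.0). At the 8 sites with TET that had CTCF in that list it was 4.31 (2.87 to 6.16). In day 4 WT cells the order was reversed. The median there was 2.99 (1.82 to 10.1) at the 5 sites without TET. It was 3.63 (2.03 to 5.19) at the 7 with TET that had CTCF in the WT list. Within the DMSO and the WT list the ranges overlap. In day 4 BPK25 cells the median was 6.06 at 4 sites without TET and 3.43 at 2 with TET. The direction therefore differed between the lists of that day, and it was not tested. The SNRPN, GNAS and PEG3 windows did hold merged regions with TET peaks elsewhere, 29, 29 and 5 of them.

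**Figure D2:**
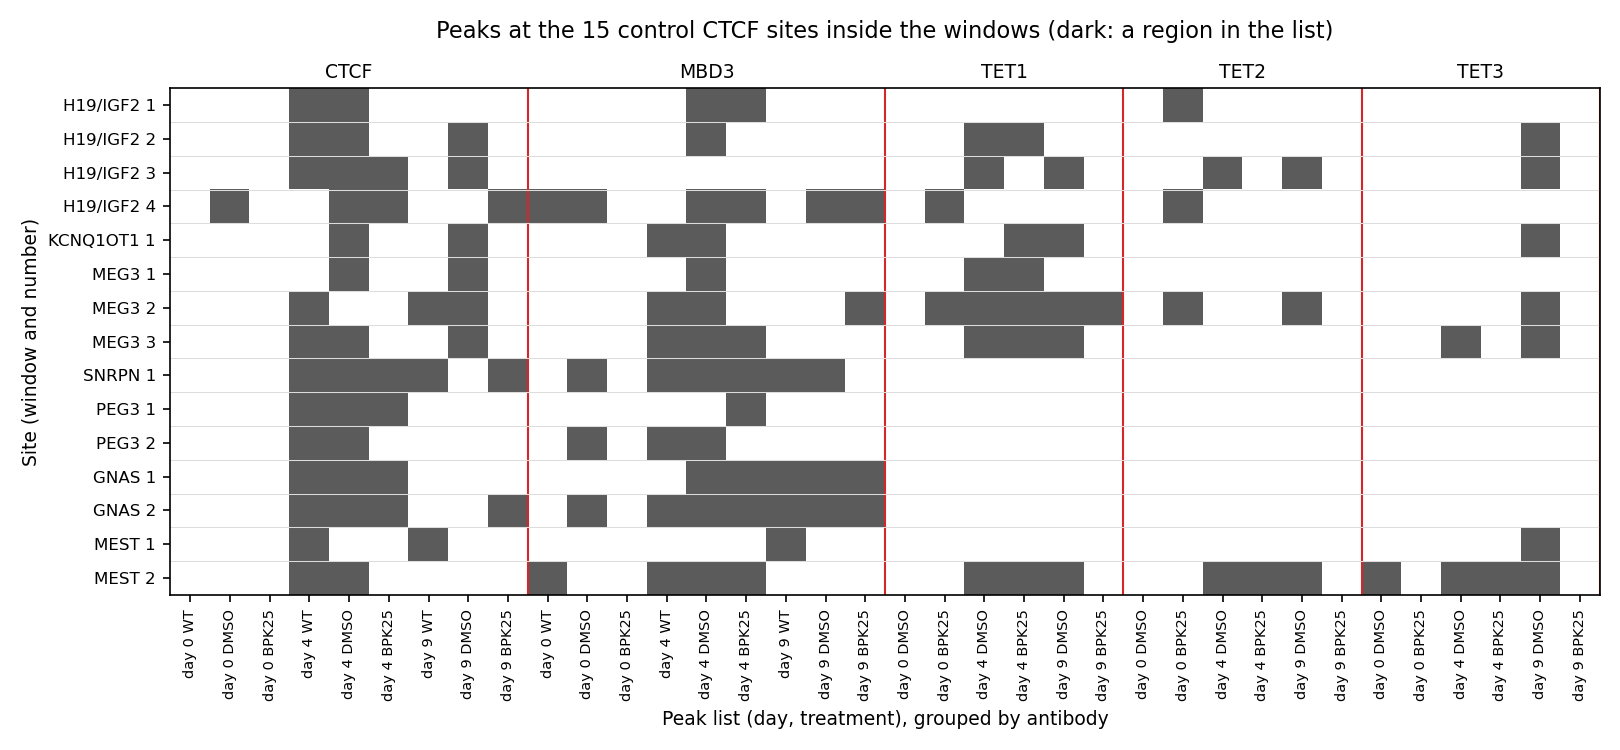
Peaks at the 15 control CTCF sites of the windows (rows, numbered within a window) in the 36 lists (columns); dark marks a region in that list. The rows of SNRPN, PEG3 and GNAS are empty under TET1, TET2 and TET3.

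Under BPK25, MBD3 and TET peaks were found at fewer of these 15 sites in 8 of 12 antibody and day pairs and at as many or more in 4. TET3 on day 9 was found at 7 sites in DMSO cells and at 0 under BPK25, TET1 on day 9 at 5 and 1, and MBD3 on day 4 at 12 and 8. On day 0, TET2 was found at 0 sites in DMSO cells and at 3 under BPK25, and TET1 at 0 and 2. These were differences of 20 and 13.3 points, against 4.08 and 3.93 points at the sites outside the windows. The day 0 lists held 31522 TET2 and 72148 TET1 regions under BPK25, against 3485 and 8577 in DMSO cells. For TET3 and TET1 on day 9 and MBD3 on day 4 the differences were -46.7, -26.7 and -26.7 points. At the sites outside the windows they were -35.0, -24.2 and -33.0 points. The mean difference was -11.1 ± 18.9 percentage points (SD, n = 12 pairs), which did not pass the two-sided sign-flip test in its exact form (p = 0.0859, adjusted p = 0.286 over the 10 tests of this family). Set against the same difference at sites outside the windows it was 4.84 ± 10.2 points (exact sign-flip p = 0.127, n = 12). Paired lists differed in length, as for TET3 on day 9, with 321 regions under BPK25 against 25543 in DMSO cells. With lists of equal length the mean difference was -6.11 points (exact sign-flip p = 0.125, n = 12). The difference set against sites outside the windows was then smaller as well (exact sign-flip p = 0.615, n = 12). The SNRPN site, the second GNAS site and the last of the H19/IGF2 sites had CTCF in both BPK25 lists of days 4 and 9, and no other site did.

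The next question was whether BPK25 changed how much of a list fell in imprinted windows. Over the 15 antibody and day pairs the log2 ratio of shares, BPK25 over DMSO, averaged -0.25 ± 1.15 (SD, exact sign-flip p = 0.454, adjusted p = 0.505). It was lower than 0 in 10 pairs and higher in 5. MBD3 of day 0 and TET2 and TET3 of day 9 had no BPK25 member, so their ratios rest on the 0.5 regions added to each count. With 1 region added the mean was -0.059 (exact sign-flip p = 0.822). In the 9 pairs with at least 5 members in both lists it was -0.038 (exact sign-flip p = 0.906). For a single antibody the exact sign-flip test over 3 days cannot go below p = 0.25. Single pairs therefore carry 95% intervals for counting error alone.

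**Figure D3:**
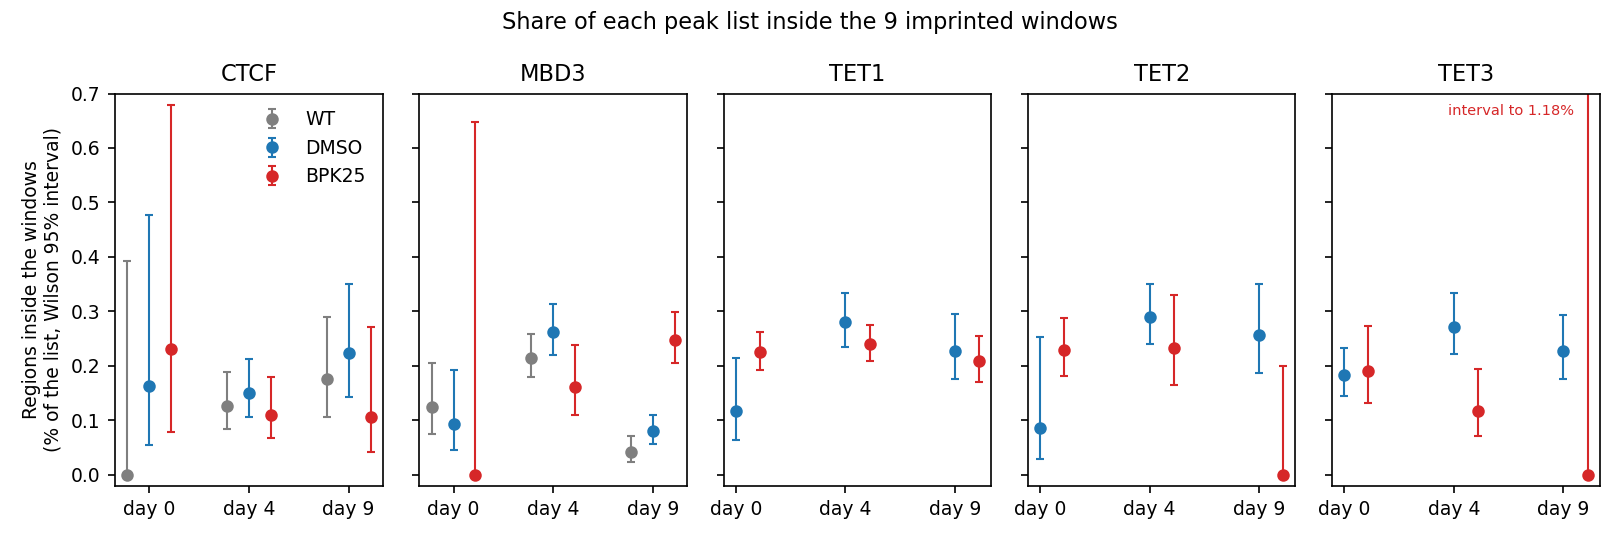
Regions inside the 9 windows as a percentage of each list, by antibody, day and label, with Wilson 95% intervals for counting error. MBD3 under BPK25 on day 9 stands at 0.248% against 0.0795% in DMSO and 0.0409% in WT cells; lists with few regions have wide intervals.

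MBD3 on day 9 was the 1 pair whose interval lay above 0. The BPK25 list had 110 regions in the windows of 44297, the DMSO list 35 of 44052 and the WT list 12 of 29341. The share was 3.10 times that of DMSO (interval 2.12 to 4.52), a log2 ratio of 1.63, with lists of almost equal length. The 3 dense windows carried it: 30 against 10 regions at H19/IGF2, 31 against 5 at KCNQ1OT1 and 26 against 6 at MEG3. GNAS had 9 against 7, PEG10 4 against 1 and SNRPN 2 against 2. The flanks were higher as well, with 260 against 140 regions, a ratio of shares of 1.84, and the windows exceeded the flanks by 0.75 in log2 (interval 0.13 to 1.37). Among regions with −log10 q of at least 5 the ratio was lower, a log2 of 0.40.

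Few day 9 BPK25 MBD3 regions overlapped a DMSO MBD3 region of that day, in the windows as in the whole list. Of the 110 members 105 did not (95.5%, Wilson 95% interval 89.8 to 98.0%), and 9.96% of that whole list did. More of them overlapped TET1 regions: 34 lay at a day 4 BPK25 TET1 region (30.9%, list 32.1%) and 29 at a day 0 BPK25 TET1 region (26.4%, list 29%). These 2 shares lie near those of the whole list.

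**Figure D4:**
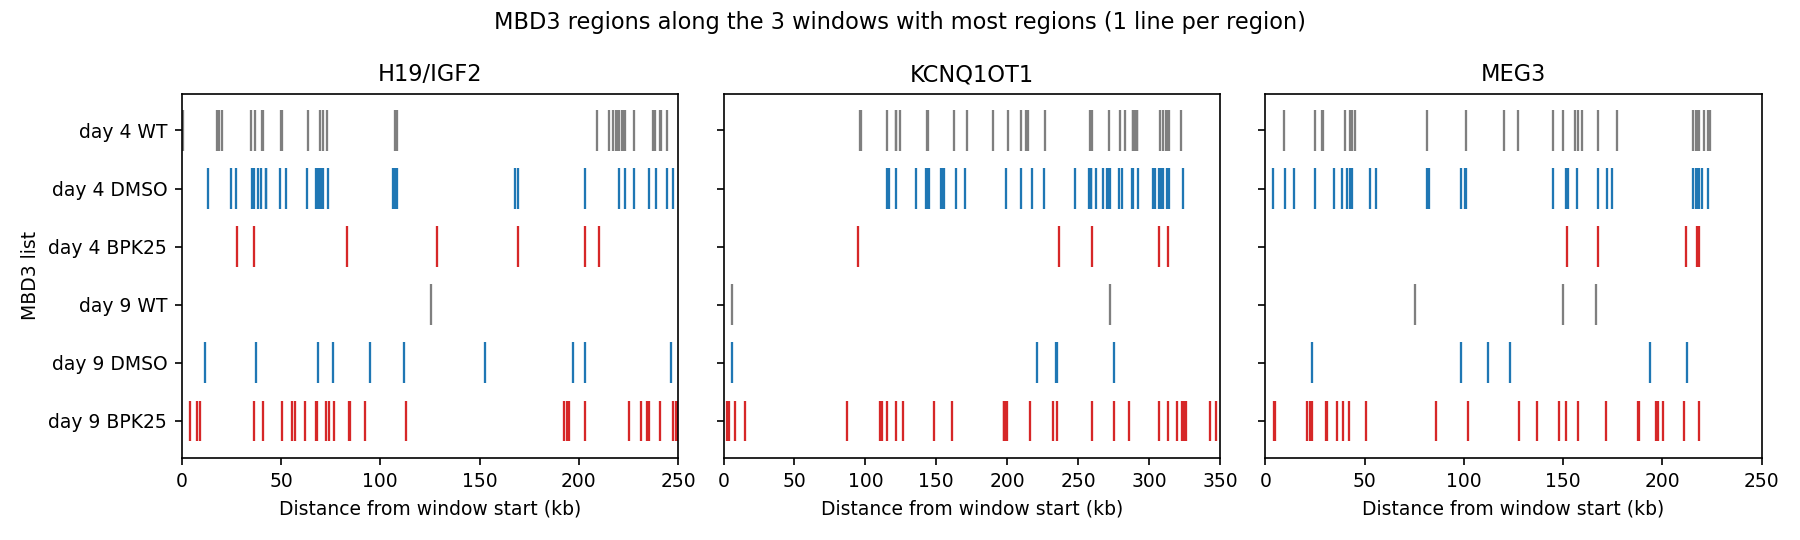
MBD3 regions (1 line each) along the H19/IGF2, KCNQ1OT1 and MEG3 windows on days 4 and 9, against distance from the window's start in kb; rows are the lists of WT, DMSO and BPK25 cells. On day 4 the WT and DMSO rows are dense and the BPK25 row sparse, and on day 9 the BPK25 row holds 30, 31 and 26 regions.

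MBD3 on day 4 went the other way. BPK25 cells had 25 regions in the windows of 15456, DMSO cells 121 of 46132 and WT cells 110 of 51109. The log2 ratio of shares was -0.67 (-1.29 to -0.06), but the lists differed in length, and with lists of equal length the value turned to 0.25. H19/IGF2 had 7 against 32 regions, KCNQ1OT1 5 against 41 and MEG3 5 against 29, while GNAS had 5 in both. TET3 on day 4 also had a lower share, 15 regions of 12757 against 90 of 33121, a log2 ratio of -1.17 (-1.95 to -0.39) that was -1.35 with lists of equal length and -2.44 at −log10 q of at least 5. The flanks were lower too, at -0.71 (-1.23 to -0.20), and the windows differed from them by -0.45 (-1.39 to 0.48). Its H19/IGF2 count was 1 against 23.

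TET1 regions in the windows were more numerous under BPK25 on each day, but no interval of their share left out 0. BPK25 lists had 162, 202 and 91 regions in the windows on days 0, 4 and 9, and DMSO lists 10, 126 and 56. The log2 ratios of shares were 0.88 (-0.02 to 1.78), -0.22 (-0.54 to 0.10) and -0.13 (-0.61 to 0.34). In the flanks they were 0.60 (0.15 to 1.05), 0.28 (0.06 to 0.49) and 0.37 (0.06 to 0.68). The windows differed from the flanks by 0.28 (-0.73 to 1.28), -0.50 (-0.89 to -0.11) and -0.51 (-1.08 to 0.06). Within the windows the spread was uneven. The SNRPN window had 13, 9 and 5 TET1 regions under BPK25 against 1, 0 and 0 in DMSO cells, and the GRB10 window 18, 17 and 11 against 2, 6 and 0. MEG3 had 27, 43 and 20 against 3, 41 and 22. These counts come from lists of unequal length, with 72148, 84203 and 43694 TET1 regions under BPK25 against 8577, 45019 and 24572 in DMSO cells. SNRPN also held 11 TET3 regions in DMSO cells on day 0 and none on days 4 and 9. These counts per window were not tested.

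TET2 and TET3 had no member in the BPK25 lists of day 9, which held 1928 and 321 regions in all. DMSO lists of that day had 39 TET2 and 58 TET3 regions in the windows. A count of 0 in lists so short allows shares of up to 0.199% and 1.18% (Wilson), so a lower share was not detectable for TET3. For TET2 the DMSO share was 0.256% (0.187 to 0.349%), and the interval of the log2 ratio, -7.34 to 0.70, included 0.

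**Figure D5:**
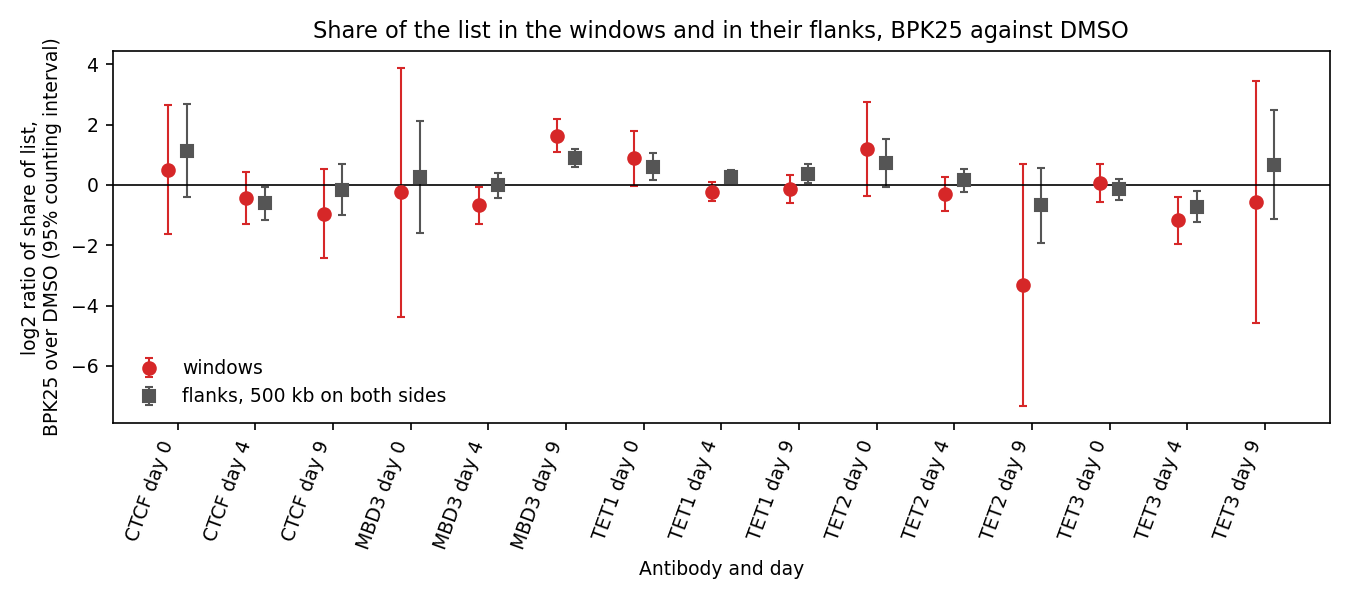
Log2 ratio of the share of the list, BPK25 over DMSO, in the windows (circles) and in the 500 kb on both sides (squares) for the 15 antibody and day pairs, with 95% counting intervals. MBD3 of day 9 is above 0 in both, and the widest intervals belong to lists with no region in the windows.

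Set against their flanks, the windows had a lower ratio in 10 of 15 pairs, with a mean of -0.43 ± 0.81 in log2 (exact sign-flip p = 0.0433, adjusted p = 0.286 over the 10 tests). With the 9 pairs that had at least 5 window regions in both lists it was -0.13 (exact sign-flip p = 0.453). The flanks alone gave 0.19 ± 0.57 (exact sign-flip p = 0.228, n = 15).

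Exchange of individual regions was then compared with that of the rest of each list. Of the 121 MBD3 members of day 4 DMSO cells, 108 had no BPK25 region, where 88.3% of the list had none. On day 9 it was 30 of 35 against 90.2%. For TET3 on day 4 it was 82 of 90 against 81.2%, for TET1 on day 4 79 of 126 against 67.2%, and for CTCF on day 4 22 of 31 against 61.6%. On day 9 none of the 19 CTCF members had a BPK25 region, and 87.9% of the list had none. Over 13 pairs with at least 5 members, the share without a BPK25 region was 1.53 ± 6.98 points higher in the windows than in the rest (exact sign-flip p = 0.443). In the other direction, 105 of the 110 MBD3 members of day 9 BPK25 cells had no DMSO region, against 90% of the list, and 155 of 202 TET1 members of day 4, against 82.3%. Over 10 pairs the difference between windows and rest was -1.98 ± 6.68 points (exact sign-flip p = 0.418).

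The DMSO member of highest −log10 q without a BPK25 region was then taken for each antibody and day. For MBD3 it was the SNRPN region on day 9, at chr15:25154328-25154769, and a KCNQ1OT1 region on day 4, at chr11:2909642-2909879, with a fold of 11.0. For CTCF on day 4 it was a PEG10 region, chr7:94285322-94285481, with a fold of 4.21. For TET3 on day 4 it was also in the KCNQ1OT1 window, at chr11:2906406-2906656, with a fold of 6.01. TET1 and TET2 on day 4 had theirs in the MEG3 window, at chr14:101232166-101232413 (fold 7.30) and chr14:101294972-101295150 (fold 7.92). The strongest BPK25 regions without a DMSO counterpart included a TET1 region of day 4 in the H19/IGF2 window, chr11:2017449-2017683, with a fold of 7.93 and a −log10 q above that of 98.8% of its list. CTCF on day 4 had one in the GNAS window at chr20:57465082-57465257, with a fold of 7.40, found in no other list.

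WT and DMSO cells gave a measure of how far lists differ without the compound. The share in windows was lower in WT than in DMSO cells in 5 of 6 pairs, with a mean log2 ratio of -0.55 ± 0.77 (exact sign-flip p = 0.156, where 6 pairs allow no less than 0.0312). MBD3 of day 9 had 12 regions in WT and 35 in DMSO cells, a log2 ratio of -0.92 (-1.85 to 0.01). DMSO members lacked a WT region more often than the rest of their list in all 5 pairs with at least 5 members, by 7.55 ± 4.29 points, and the test gave the smallest p it allows (exact sign-flip p = 0.0625, adjusted p = 0.286). For MBD3 on day 4 this was 73 of 121 against 50.8%. WT members without a DMSO region exceeded the rest by 0.95 ± 13.4 points (exact sign-flip p = 0.812, n = 5).

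How many members were found again on another day varied with the antibody and the days compared. MBD3 members of day 0 were mostly found again on day 4, 6 of 7 in DMSO cells (list 72.9%) and 13 of 15 in WT cells (list 72.6%). Of the 121 MBD3 members of day 4 in DMSO cells only 6 were found on day 9 (4.96%, Wilson 2.29 to 10.4%), and the whole list had 14.3%. TET1 members of day 4 in DMSO cells were found on day 9 in 20 of 126 cases, with 23.3% for the list. Under BPK25, 65 of the 162 TET1 members of day 0 were found on day 4, with 34.2% for the list. MBD3 under BPK25 kept 6 of 25 from day 4 to day 9, with 31.7% for the list.

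Overlaps between antibodies at the members were set against those of the lists. In DMSO cells of day 4, 16 of 31 CTCF members overlapped an MBD3 region (list 52.8%), and 39 of 90 TET3 members did (list 45.2%). On that day CTCF was found at fewer of the other antibodies' members than in their lists. A CTCF region lay at 5 of 90 TET3 members (5.56%, 2.40 to 12.4%), where the list had 16.2%. It lay at 5 of 106 TET2 members, where the list had 14.5%. For MBD3 it was 16 of 121 (13.2%, 8.31 to 20.4%) against 23.7%. For TET1 it was 9 of 126 (7.14%, 3.80 to 13.0%) against 12.2%, which lies inside the interval. The day 9 DMSO lists were mixed. There TET2 had 8 of 39 (20.5%) against 16.6% and TET3 8 of 58 (13.8%) against 14.9%. TET1 had 5 of 56 (8.93%) against 14.6%, and MBD3 0 of 35 against 4.91%. On day 9 no CTCF member of DMSO cells, of 19, overlapped MBD3 (upper limit 16.8%), where the list had 26%. Likewise none of 56 TET1 members overlapped MBD3 (upper limit 6.42%), where the list had 10.3%.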

How the data were processed

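The 135 samples, sorted into 45 groups by what their titles say of day, label and antibody, were 27 inputs and 108 immunoprecipitations of CTCF, MBD3, TET1, TET2 or TET3. Nothing states that the 3 replicates of a group were separate cultures. Per the labels, each of the 36 peak lists was made from such replicates after pooling. The submitters' processing notes name, with no role for any, MACS2 2.1.2, Bowtie2 2.3.4, FastQC 0.11.7, bedtools 2.25.0, SAMtools 1.9 and the build hg19. The input used for a call is not given in the sources used here, and the labels' protocols name antibodies for CTCF, MBD3 and TET1 alone. Of each peak, the fold enrichment over local background (a linear ratio) and the −log10 q-value, both deposited by the authors, were used, and the highest q-value was 0.05. These values belong to single peaks. They were used to describe, rank or filter peaks within a list and to break ties between regions. Where values of different lists stand side by side, they were not tested against each other, since depth is unknown.

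Where an interval had several summit rows, the row of highest −log10 q was kept as its region. Regions wholly inside a window were members, and regions overlapping by at least 1 bp were shared. Shares have Wilson 95% intervals, and log2 ratios of shares used a pseudocount of 0.5 regions, with 95% intervals. Both cover counting error only, since depth is unknown. Differences over antibody and day pairs were tested with exact two-sided sign-flip tests, with Benjamini-Hochberg adjustment over 10 tests. A result was taken to pass at an unadjusted p of 0.05, and none passed after adjustment. Pairs are not fully independent, since inputs may serve several lists. BPK25 and WT comparisons share the DMSO lists. Regions named are, per window, the one in most lists (ties by −log10 q), control CTCF sites in most lists, and, per antibody and day, the member of highest −log10 q in DMSO without a BPK25 region and the reverse. The KCNQ1OT1 region at chr11:2721007-2721885 was named after its values were seen. The windows, lists and tests were chosen with earlier results of these data known. The flank comparisons and the restriction to pairs with at least 5 members in both lists were added after seeing the data. Code ran on Python 3.11.15 with matplotlib 3.10.9, scipy 1.17.1, pandas 2.3.3 and numpy 2.4.6, was tested on simulated data, and was checked against bedtools 2.31.1, with 10910 day 4 DMSO CTCF regions overlapping MBD3 by both.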

Additional observations from a re-analysis of the deposited data

Results flagged for a closer look

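The share of MBD3 regions inside the windows moved in opposite directions on different days. Against DMSO, BPK25 cells had a log2 ratio of 1.63 on day 9 and -0.67 on day 4, and both counting intervals left out 0. The difference between the days was not tested, since each day has 1 list per label. The day 4 value turned to 0.25 when the lists were made equal in length. The day 9 value was then 1.63, but its lists, of 44297 and 44052 regions, were of almost equal length already. At −log10 q of at least 5 the values were 0.14 on day 4 and 0.40 on day 9, so the directions were no longer opposite.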

How the results depend on the processing

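No paired analysis was possible because replicates, whose numbers could have been a block, were pooled before peaks were called, and for the same reason no replicate could be left out. Lists carry no depth, so unequal depth between lists and their effect on these values was not tested. Of 166 recomputed results, 131 kept their direction and their side of an unadjusted p of 0.05. The cause of the others was not tested. The log2 ratio of shares for BPK25 turned to 0.25 at a fold enrichment of at least 4, and that for WT to 0.048 at −log10 q of at least 5 and 0.050 at a fold of at least 4. Without the H19/IGF2 window the WT ratio was -0.52 (exact sign-flip p = 0.0312). DMSO members without a BPK25 region differed from the rest by -1.87 points at a fold of at least 4, by -0.13 without GRB10, and by 2.85 without MEG3 (exact sign-flip p = 0.0481). BPK25 members without a DMSO region differed by 4.03 points at −log10 q of at least 5, 3.36 at a fold of at least 4, 1.76 with windows widened by 100 kb, 0.36 with lists of equal length and 2.62 with reciprocal overlap of 50%. WT members without a DMSO region differed by -0.84 points within 500 bp, and by -1.78, -3.26 and -0.76 without H19/IGF2, MEG3 and GRB10. At control CTCF sites the difference was -11.9 points with widened windows (exact sign-flip p = 0.0391) and -6.11 with lists of equal length (exact sign-flip p = 0.125). Against other sites it was -2.68 at −log10 q of at least 5 and 6.34 without MEST (exact sign-flip p = 0.0293). The flanks gave -0.0069 at −log10 q of at least 5, 0.27 with widened windows and 0.41 with lists of equal length (exact sign-flip p = 0.0351 and 0.0334). Windows minus flanks turned to 0.071 at a fold of at least 4. Its unadjusted p rose above 0.05 at −log10 q of at least 5 (-0.17), without regions in at least 18 lists (-0.33), with lists of equal length (-0.59), in pairs with at least 5 members in both lists (-0.13), with a pseudocount of 1 (-0.28) and with covered length (-0.45). It did so too without H19/IGF2 (-0.35), KCNQ1OT1 (-0.38), MEG3 (-0.29), GNAS (-0.43), PEG3 (-0.36) or GRB10 (-0.40). Of single pairs, the MBD3 share of day 4 turned to 0.14 at −log10 q of at least 5 and 0.25 with lists of equal length. At that −log10 q minimum MBD3 of day 9 moved to 0.40 and TET3 of day 4 to -2.44, and some pairs whose main interval included 0 moved as well (CTCF of day 9, TET1 of days 0 and 9, TET2 of day 9 and TET3 of day 0).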

Other observations

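In some lists a pair of member regions combined high −log10 q with low fold enrichment. At chr11:2152677-2153347 the day 4 BPK25 CTCF peak had a −log10 q of 36.9 at a fold of 3.32, and the day 9 BPK25 MBD3 peak 29.2 at 2.72, whereas 3 of its 12 peaks had a −log10 q of only 4.69, 3.29 and 2.48. At the second GNAS control CTCF site, chr20:57466749-57466927, the day 4 WT CTCF peak had 29.3 at a fold of 1.82. The day 4 BPK25 MBD3 peak had 91.1 at 3.61, and the day 9 DMSO MBD3 peak had a fold of 10.6. The SNRPN site had a −log10 q of 85.4 for CTCF in day 4 WT cells, at a fold of 10.1. These values come from different lists of unknown depth and were not tested against each other. The TET3 lists of DMSO cells held 11 regions in the SNRPN window on day 0, and 0 on days 4 and 9.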
